A study of Mus musculus with 4 samples.

Results

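Follicular B cells express Toll-like receptors, and 10 genes of this system were followed in sorted cells from wild-type (WT) and Ets1-/- mice. The members were chosen for their function as receptors, adaptors or partner proteins used by B cells: Tlr1, Tlr2, Tlr3, Tlr4, Tlr6, Tlr7, Tlr9, Cd180, Ly86 and Myd88. All 10 were found among the 23305 genes with 1 entry per library, and all 10 were among the 10949 genes that could be tested. RNA came from spleens of female mice and was sequenced as 4 libraries, 2 per genotype, described by the study as biological replicates. WT animals were of the C57BL/6 strain. Ets1-/- animals, which lack Ets1 in every cell of the body and not in B cells alone, were kept on a C57BL/6 x 129Sv background, so strain and genotype cannot be told apart here. No library received a treatment, and the age of these mice was not given in the sources used here. Cells were gated as positive for B220, high for CD23, low for CD21, and negative for CD80 and for the switched isotypes IgA, IgE and IgG.

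Toll-like receptors recognise microbial molecules. Those at the cell surface bind lipopeptides and lipopolysaccharide, TLR2 pairing with TLR1 or TLR6 and TLR4 acting with MD-2, while TLR3, TLR7 and TLR9 bind nucleic acids in endosomes after delivery by UNC93B1. All but TLR3 signal through the adaptor MYD88. CD180 (RP105) is a relative that lacks a signalling domain and needs MD-1, the product of Ly86, to reach the surface of B cells. Ets1 is a transcription factor that keeps B cells quiescent, and Ets1-/- B cells are known to turn readily into antibody-secreting cells when TLR ligands are given.

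The libraries carried B cell markers. All 8 listed were expressed. Levels are in FPKM (sequenced fragments scaled to transcript length and to library size, a level per length). The 8 summed to 6981 and 6858 in WT and to 5831 and 6939 in Ets1-/- libraries. Fcer2a, which encodes CD23, was at 488 to 664. Of the 4 follicular B cell markers with an entry, Ccr7 was higher and Cxcr5 lower in both Ets1-/- libraries. Ccr7 was at 133 and 148 in WT and 215 and 183 in Ets1-/- libraries, and Cxcr5 at 163 and 123, then 77.2 and 116. Of 6 plasma cell markers 2 were higher and 3 lower in both Ets1-/- libraries, beside 41.6% of all genes tested without overlap. Of 12 neutrophil markers 11 were higher in both Ets1-/- libraries than in both WT libraries, where 41.6% of all genes tested did not overlap between genotypes in either direction, and their sum was 118 and 97.9 FPKM in WT but 2581 and 709 in Ets1-/- replicates 1 and 2. Of 13 monocyte and macrophage markers 4 were higher in this way and 0 were lower, a count no higher than that share. The list sums were 70.3 and 35.0 FPKM in WT and 161 and 103 in Ets1-/- replicates 1 and 2. Among the 4, Emr1 was at 2.35 and 2.63 FPKM in WT and at 23.5 and 37.2 in Ets1-/- libraries. Itgam was at 2.37 and 1.56 in WT and at 6.78 and 6.01 in Ets1-/- libraries. All 5 erythroid markers were higher in both Ets1-/- libraries, with sums of 6.70 and 4.27 FPKM in WT and 64.4 and 28.1 in Ets1-/- replicates 1 and 2. So were 5 of 7 dendritic cell markers, with sums of 5.71 and 4.76 in WT and 7.57 and 7.16 in Ets1-/- libraries. In every library 2 of the erythroid and 4 of the dendritic cell markers were under 1 FPKM. Among the latter, Zbtb46 was at 0.533 and 0.543 in WT and at 0.557 and 0.558 in Ets1-/- libraries. Of 8 T and NK cell markers 4 were lower and 1 was higher in both Ets1-/- libraries. The NK cell gene Ncr1 was at 2.42 and 0.957 FPKM in WT and at 0.0224 and 0.128 in Ets1-/- libraries. The list sum, in which Lck and Cd3g have most weight, overlapped at 111 and 89.2 in WT and 85.0 and 111 in Ets1-/- libraries. The part of these cells in the values of the members was not tested. Ets1 itself was at 231 and 275 FPKM in WT and at 229 and 230 in Ets1-/- libraries. The genotypes did not overlap, as in 41.6% of all genes tested. WT replicate 1 lay so close to both Ets1-/- libraries that this value gives no check of the labels. The study reports no fall of Ets1 RNA as a whole in the mutant cells, with reduced or absent signal at the targeted exons. A single value per gene cannot show such a loss by exon. The files show depth only relative to WT replicate 1, and by this measure the deepest library had about 2.01 times the depth of the shallowest.

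The sequences shown first are those around the gene that changed, Tlr1, and its neighbour Tlr6. In mm9, Tlr1 occupies bases 65316050 to 65324000 of chromosome 5 and is read from the minus strand, and Tlr6, the next protein-coding gene in GENCODE M1, lies 20344 bases away on the same strand, from 65344345 to 65351287. The longest stretch that their transcripts share without a difference is 229 bases long and lies within both coding sequences. It is printed because a read lying wholly inside it cannot be assigned to one of the genes.
Tlr1 and Tlr6, shared coding stretch: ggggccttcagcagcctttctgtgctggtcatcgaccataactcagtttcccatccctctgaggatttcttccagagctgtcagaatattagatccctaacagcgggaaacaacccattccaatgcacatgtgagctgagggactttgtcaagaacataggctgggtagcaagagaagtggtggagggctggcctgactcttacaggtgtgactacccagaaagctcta
Of all windows of 50 bases in the Tlr1 transcript 17.4% also occur in Tlr6, and 17.8% of those in Tlr6 occur in Tlr1. For the other 8 members 0 windows of this length were shared with the protein-coding transcript of another gene. How the authors' programs divided reads between Tlr1 and Tlr6 is not given in the sources used here, so the FPKM of both, and of the lower Tlr6 in particular, is uncertain to that degree.

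RefSeq start sites (GRCm38.p6) were available for 8 members with 11 windows of 300 bases, 250 before and 50 after the start. All 11 windows matched their own chromosome in mm9 exactly and once, and other chromosomes were not searched. The windows of both Tlr1 start sites and of the Tlr6 start site that GENCODE also lists are printed 5′ to 3′ on the minus strand, with GGAA, the core shared by binding sites of Ets proteins, and its reverse complement TTCC in capitals.
Tlr1, chr5:65323889-65324188: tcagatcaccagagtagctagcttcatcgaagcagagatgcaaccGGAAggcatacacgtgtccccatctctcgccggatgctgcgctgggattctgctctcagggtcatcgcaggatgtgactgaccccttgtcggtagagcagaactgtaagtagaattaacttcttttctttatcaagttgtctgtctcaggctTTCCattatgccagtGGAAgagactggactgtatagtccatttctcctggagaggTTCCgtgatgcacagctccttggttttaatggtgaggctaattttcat
Tlr1, chr5:65324748-65325047: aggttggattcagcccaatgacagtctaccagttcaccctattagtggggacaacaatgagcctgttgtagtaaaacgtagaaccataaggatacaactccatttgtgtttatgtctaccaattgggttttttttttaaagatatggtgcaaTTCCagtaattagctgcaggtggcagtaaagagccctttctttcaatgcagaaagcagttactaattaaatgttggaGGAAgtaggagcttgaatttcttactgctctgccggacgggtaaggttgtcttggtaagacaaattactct
Tlr6, chr5:65351238-65351537: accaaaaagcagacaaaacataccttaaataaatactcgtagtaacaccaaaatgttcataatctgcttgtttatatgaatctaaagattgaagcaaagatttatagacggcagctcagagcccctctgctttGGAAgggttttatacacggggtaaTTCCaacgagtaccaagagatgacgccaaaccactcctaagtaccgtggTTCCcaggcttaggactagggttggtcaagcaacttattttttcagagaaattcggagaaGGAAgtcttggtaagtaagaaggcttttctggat
On both strands GGAA occurred 4 and 2 times in the Tlr1 windows and 4 times in this Tlr6 window. It was present in 96.0% of 32851 mouse promoter windows, with a median of 3 per window. The longer CCGGAAG, which contains GGAA, was found in 1 of the 11 member windows, that of the first Tlr1 start site, where its first base was at position -207 counted from the start site. Of all promoter windows 8.86% held it. AGGAAG, another longer form of GGAA, was found in 6 of the 11 member windows, those of the second Tlr1 start site, both Tlr6 start sites, Tlr2, Tlr9 and Ly86, and in 35.4% of all promoter windows. These are matches of letters, and Ets1 binding was not analysed here.

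In WT follicular B cells the members spanned more than 2 orders of magnitude. Ly86 was highest, at 312 and 334 FPKM in the WT replicates, above 97.6% of the genes tested. Cd180, its receptor partner, followed at 114 and 109 FPKM, and Tlr1 came next at 71.0 and 66.6. Tlr1 was thus the highest of the 7 Toll-like receptors. Myd88 at 28.3 and 28.6 FPKM and Tlr9, the sensor of unmethylated CpG DNA, at 30.9 and 25.7 overlapped between replicates and were not separated. Tlr7, which senses single-stranded RNA, was at 14.7 and 12.3 FPKM. The remaining receptors were low, with Tlr4, the receptor for lipopolysaccharide, at 5.72 and 4.78 FPKM, Tlr2 at 4.73 and 3.79, Tlr6 at 2.59 and 2.35, and Tlr3, the sensor of double-stranded RNA, at 0.956 and 1.43. Apart from Myd88 and Tlr9, each WT neighbour in this order lay above the next in both replicates. The plot of FPKM by library shows this order and the displacement of Tlr1 in Ets1-/- cells.

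**Figure D1:**
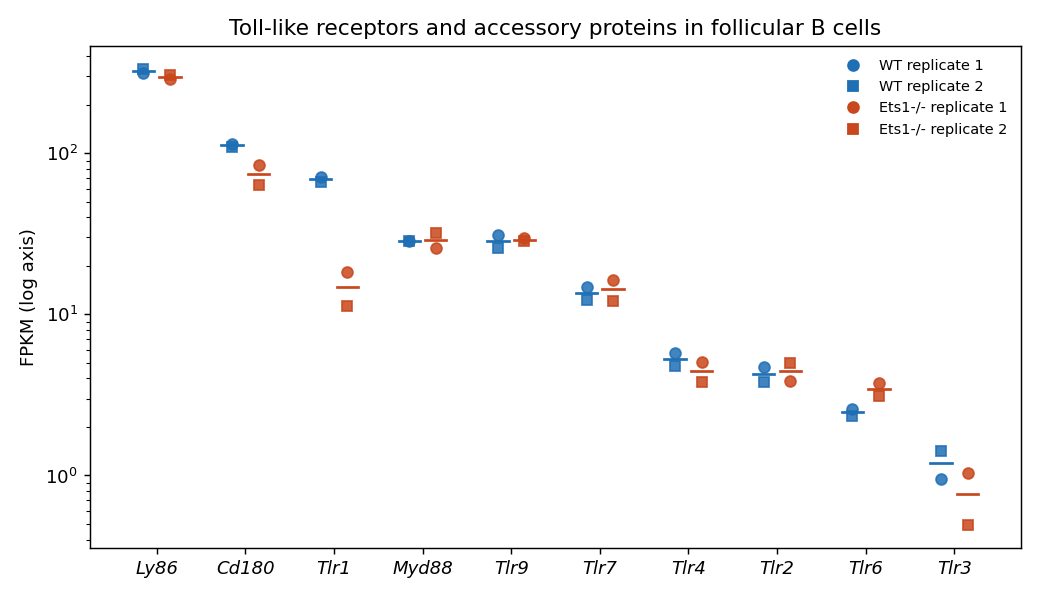
FPKM of each member on a log axis, with circles for replicate 1, squares for replicate 2 and a short line at the mean of each genotype, WT in blue and Ets1-/- in orange. Tlr1 moves from a WT mean of 68.8 FPKM to an Ets1-/- mean of 14.8, level with Tlr7, while the means of the other members shift by less.

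To ask which members depend on genotype, limma was fitted to log2(FPKM + 1) of all genes tested, and a gene was called at a log2 fold change of at least 1 in either direction and an adjusted p of 0.05 or less. Of the 10 members 1 was called, Tlr1, which fell. Over all genes tested 1.7% were called, and 0.822% were called as lower. At an unadjusted p of 0.05 or less there were 2 members, Tlr1 and Cd180, where 13.3% of all genes met this. In 4 members, Tlr1, Tlr6, Cd180 and Ly86, the genotypes did not overlap, a share near the 41.6% of all genes. The median log2 fold change of the members was -0.06, and that of all genes tested was -0.02.

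Among the surface receptors Tlr1, which with TLR2 recognises triacylated lipopeptides, changed most. Its Ets1-/- replicates were at 18.4 and 11.2 FPKM, both far below the 71.0 and 66.6 of WT. The WT mean was 4.65 times the Ets1-/- mean, and the log2 fold change of -2.18 had a standard error of 0.25, a 95% interval from -2.81 to -1.55 and an adjusted p of 0.0266. The Ets1-/- replicates themselves differed 1.63-fold, more than the 1.07-fold between the WT replicates. A further fit tested every gene above 0 in any library, in place of those averaging 1 FPKM or more in a genotype. There the same log2 fold change had an adjusted p of 0.0684, and Tlr1 was not called. This was the highest adjusted p of 11 alternatives. The lowest, 2.39e-05, came from limma with crossed pairs of libraries as a block, a setting chosen after seeing the data. With same-numbered libraries as a block the adjusted p was 0.00161. In a sorted population fewer Tlr1-expressing cells and less Tlr1 RNA per cell cannot be told apart. Marginal zone B cells are a subset that Ets1-/- mice are known to lack and that the gate on CD21 should remove. Their 7 markers summed to 877 and 1076 FPKM in WT and to 951 and 997 in Ets1-/- libraries. Plac8 and Mzb1 have most weight in this sum. Of the 7, Dtx1 and Cr2 were lower in both Ets1-/- libraries while Mzb1 was higher. Together this is a share near the 41.6% of all genes without overlap. By limma these 3 had an unadjusted p of 0.05 or less, where 13.3% of all genes did, and 0 of the 7 were called. Their log2 fold changes were -1.28 for Cr2, -0.65 for Dtx1 and 0.53 for Mzb1. Cr2 was at 102 and 116 FPKM in WT and at 65.1 and 30.0 in Ets1-/- libraries. The part of marginal zone B cells in the Tlr1 difference was not tested.

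Neither gene beside Tlr1 differed between genotypes by as much. Tlr6, whose product pairs with TLR2 for diacylated lipopeptides, was at 3.72 and 3.13 FPKM in Ets1-/- libraries, both above the 2.59 and 2.35 of WT. Its log2 fold change of 0.35 (95% interval from -0.05 to 0.75) had an adjusted p of 0.450 and was not called. On the other side, Klf3, 94681 bases from Tlr1 and encoding a Krüppel-like transcription factor, was at 46.3 and 44.1 FPKM in WT and at 41.9 and 43.5 in Ets1-/- libraries. Tlr2, the shared partner, overlapped between genotypes at 3.85 and 4.99 FPKM in Ets1-/- cells, with a log2 fold change of 0.04 (95% interval from -0.43 to 0.52).

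Within a library the FPKM of Tlr1 relative to its partner gene does not depend on the scaling of that library. Tlr1 was 15.0 and 17.6 times Tlr2 in the WT replicates and 4.76 and 2.25 times Tlr2 in the Ets1-/- replicates. Relative to Tlr6, Tlr1 was 27.5-fold and 28.4-fold higher in WT and 4.93-fold and 3.59-fold higher in Ets1-/- libraries. Both ratios thus separated the genotypes without overlap, and Tlr1 remained the most abundant of the 3 transcripts in each library. The log2 differences between genotypes, -2.31 for Tlr1 to Tlr2 and -2.73 for Tlr1 to Tlr6, each had p = 0.333 in a two-sided exact permutation test, which is the smallest p that 2 samples against 2 allow.

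**Figure D2:**
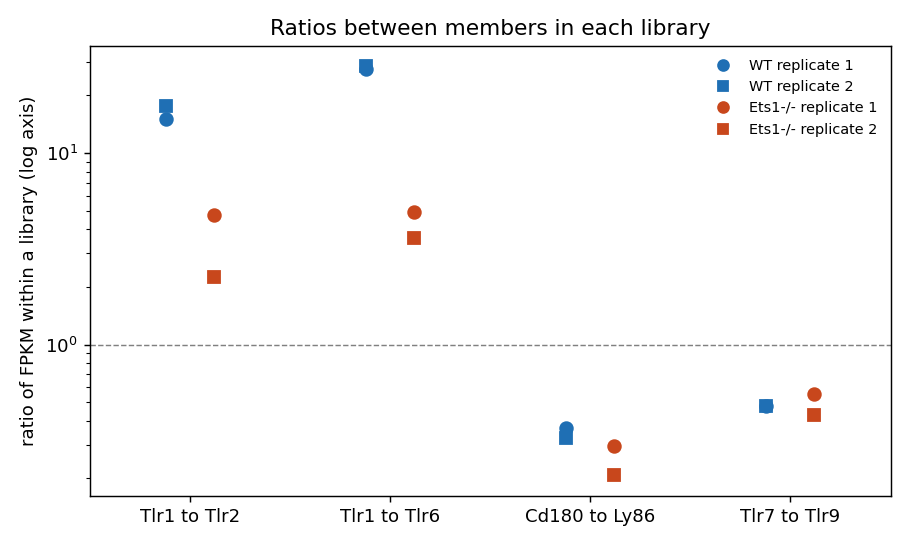
Ratio of FPKM between 2 members within each library on a log axis, with circles for replicate 1 and squares for replicate 2, WT in blue and Ets1-/- in orange, and a dashed line at a ratio of 1. The Tlr1 ratios lie at 15.0 or above in WT and at 4.93 or below in Ets1-/- libraries, while Tlr7 to Tlr9 overlaps between genotypes.

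Tlr4 was at 5.06 and 3.83 FPKM in Ets1-/- libraries and overlapped WT, with a log2 fold change of -0.20 (95% interval from -0.68 to 0.27) and an adjusted p of 0.772. Ly96, the gene of its partner MD-2, was named after its values were seen and was at 4.12 and 6.00 FPKM in WT and at 6.84 and 1.48 in Ets1-/- libraries, the 2 Ets1-/- replicates lying on either side of WT. Tlr2 and Tlr4 are also expressed by neutrophils and macrophages. Of 12 neutrophil markers 11 were higher in both Ets1-/- libraries, and of 13 monocyte and macrophage markers 4 were, beside 41.6% of all genes without overlap. Tlr2 and Tlr4 themselves overlapped between genotypes. Cd14, a co-receptor of TLR4 typical of monocytes, was at 0.545 and 0.145 FPKM in WT and at 0.958 and 0.539 in Ets1-/- libraries, higher by mean but overlapping. The part of such cells in the Tlr2 and Tlr4 values was not tested.

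Cd180 was lower in both Ets1-/- replicates, at 85.0 and 63.6 FPKM against 114 and 109 in WT. Its log2 fold change of -0.60 (standard error 0.19, 95% interval from -1.08 to -0.11) had an unadjusted p of 0.0244 and an adjusted p of 0.250, so the difference was not called. Ly86 was at 287 and 306 FPKM in Ets1-/- cells, just below the 312 and 334 of WT, with a log2 fold change of -0.12 (95% interval from -0.54 to 0.29). Cd180 relative to Ly86 was 0.365 and 0.327 in WT and 0.296 and 0.208 in Ets1-/- libraries, without overlap. The log2 difference of this ratio was -0.48 (p = 0.333, two-sided exact permutation test, again the smallest possible). It was -0.22 without Ets1-/- replicate 2 and -0.73 without Ets1-/- replicate 1, and the log2 fold change of Cd180 itself was -0.39 and -0.80 in these cases.

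The endosomal receptors overlapped between genotypes. Tlr7 was at 16.4 and 12.1 FPKM in Ets1-/- libraries, a log2 fold change of 0.06 (95% interval from -0.44 to 0.57). Tlr9 was at 29.9 and 28.3 FPKM, a log2 fold change of 0.04 (95% interval from -0.35 to 0.44). Neither interval reaches a 2-fold change on this scale. The ratio of Tlr7 to Tlr9 was 0.475 and 0.479 in WT and 0.550 and 0.427 in Ets1-/- libraries. Tlr3, tested only because its WT mean of 1.19 FPKM passed the minimum, was at 1.03 and 0.494 FPKM in Ets1-/- cells, and its log2 fold change of -0.32 (95% interval from -0.91 to 0.26) understates a change at such low values. Myd88, the adaptor of the Toll-like receptors other than TLR3, was at 25.7 and 32.2 FPKM, on both sides of WT, with a log2 fold change of 0.01 (95% interval from -0.40 to 0.43).

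In Ets1-/- cells the order of levels therefore differed from WT in the place of Tlr1. Tlr9 and Myd88, with means of 29.1 and 28.9 FPKM, were not separated, Tlr1 and Tlr7 at 14.8 and 14.3 overlapped, and so did Tlr4 and Tlr2 at 4.44 and 4.42. Of the 9 members that were not called, 8 had a 95% interval of the log2 fold change within -1 and 1, the exception being Cd180. For Tlr3 this interval does not bound the change in FPKM to under 2-fold, since with a pseudocount of 0.1 in place of 1 its log2 fold change was -0.63. The plot of changes with their intervals shows the members in order.

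**Figure D3:**
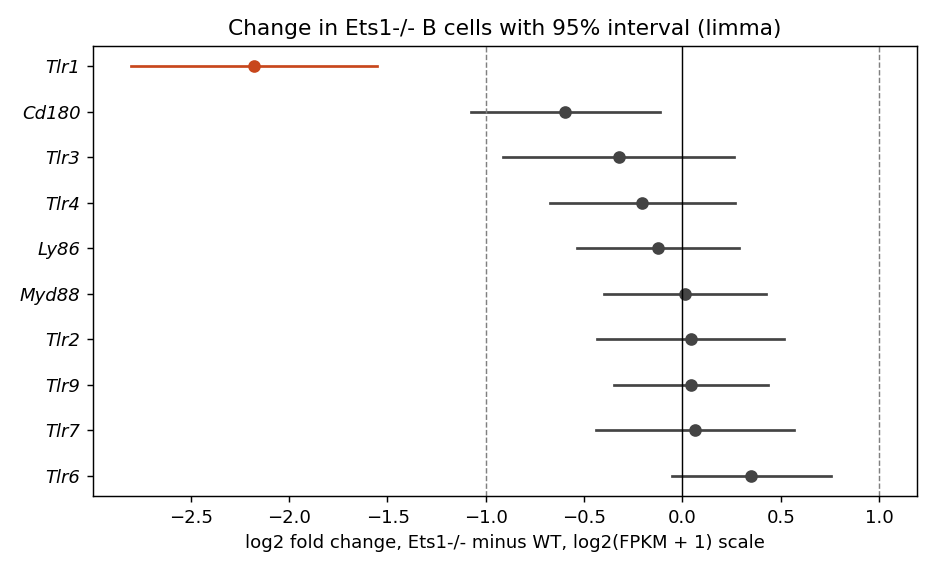
Log2 fold change of each member on the log2(FPKM + 1) scale, Ets1-/- minus WT, as a point with its 95% interval from limma, and dashed lines at -1 and 1. Tlr1, in orange, is the called member, with an interval from -2.81 to -1.55, and the lower end of Cd180 reaches -1.08.

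Outside the 10 members, 53 other genes of the pathway were grouped by role, of which 45 could be tested. By limma 0 of the 45 were called in either direction, and 5 had an unadjusted p of 0.05 or less, where 13.3% of all genes did. Their median log2 fold change was -0.06, with a range from -0.95 to 0.97, and for 38 of them the 95% interval lay within -1 and 1.

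Of the receptor partners 2 of 4 were tested. Cd36, a scavenger receptor that helps TLR2 bind diacylated lipids, was at 11.0 and 13.05 FPKM in WT and at 8.21 and 3.89 in Ets1-/- cells, lower in both. Its log2 fold change was -0.95 (adjusted p = 0.285). All 6 genes of receptor folding and trafficking were tested, and their log2 fold changes lay between -0.25 and 0.25. Unc93b1, the chaperone that carries TLR3, TLR7 and TLR9 to endosomes, was the highest of them at 371 and 370 FPKM in WT and 385 and 469 in Ets1-/- cells. Among 5 proteases that can cleave endosomal receptors, Ctsl (cathepsin L) was at 3.45 and 3.24 FPKM in WT and at 5.08 and 4.52 in Ets1-/- cells, a log2 difference of 0.41 (adjusted p = 0.315).

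The adaptors besides Myd88 lay on both sides of 0. Tirap, which bridges TLR2 and TLR4 to MYD88, was at 6.48 and 5.98 FPKM in WT and at 4.62 and 4.10 in Ets1-/- cells, a log2 difference of -0.43 (adjusted p = 0.286). Ticam2 (TRAM), which takes TLR4 to the TRIF pathway, was at 2.33 and 2.38 FPKM in WT and at 3.19 and 4.13 in Ets1-/- cells, a log2 difference of 0.47 (adjusted p = 0.330). For neither was a change called, and these 2 were the adaptors without overlap among the 4 tested, near the 41.6% of all genes.

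Of the 13 genes grouped as kinases, ubiquitin ligases and their partners below the adaptors, 0 had an unadjusted p of 0.05 or less. Their log2 fold changes lay between -0.39 and 0.30. Irak1, the kinase recruited to MYD88 with IRAK4, was the highest at 58.5 and 48.4 FPKM in WT and 60.1 and 70.0 in Ets1-/- cells. Of the 7 transcription factors Irf8 was highest, at 226 and 245 FPKM in WT and 296 and 338 in Ets1-/- cells, with a log2 fold change of 0.42 (95% interval from -0.01 to 0.86, adjusted p = 0.383). Among the inhibitors Socs1, which damps cytokine and Toll-like receptor signals, was at 5.28 and 4.10 FPKM in WT and at 7.54 and 13.4 in Ets1-/- cells, the largest log2 difference of the 45 in the upward direction at 0.97, with an adjusted p of 0.221. The plot of changes by role shows that Tlr1 lies apart from the members and pathway genes alike.

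**Figure D4:**
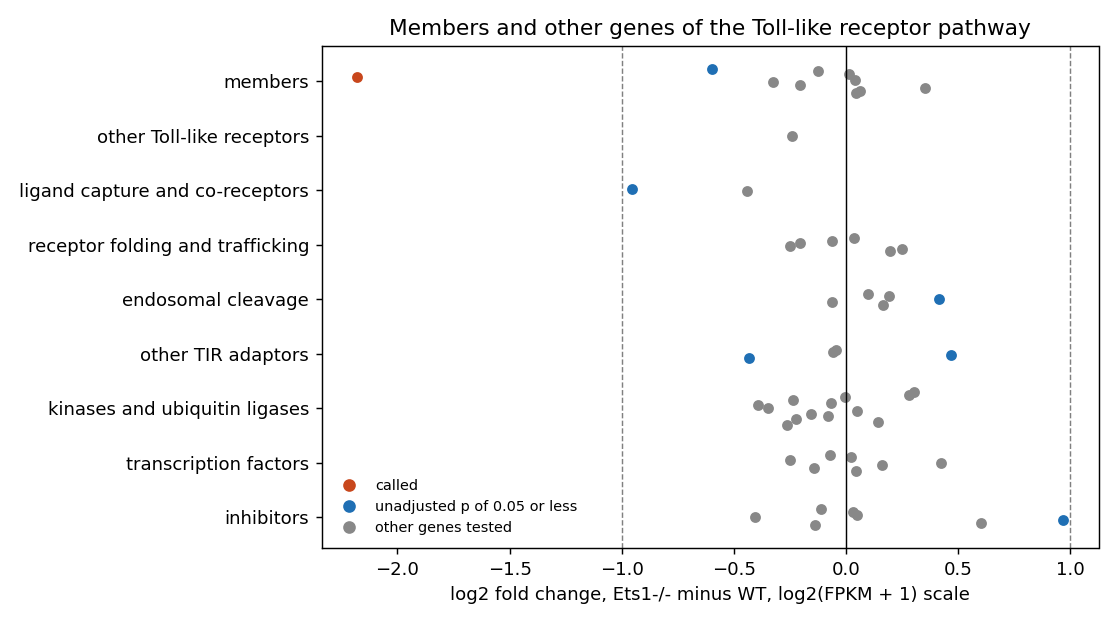
Log2 fold change, Ets1-/- minus WT on the log2(FPKM + 1) scale, of the 10 members and the 45 other pathway genes tested, 1 point per gene and 1 row per role, orange for called and blue for an unadjusted p of 0.05 or less. Tlr1 at -2.18 is the point beyond the dashed lines at -1 and 1, and the pathway genes run from -0.95 for Cd36 to 0.97 for Socs1.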

How the data were processed

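RNA of sorted follicular B cells was sequenced from Illumina TruSeq libraries. Per the labels' processing notes, reads were aligned to mm9 with TopHat2 2.0.13 and expression was estimated with Cuffdiff. The authors deposited 1 FPKM value per gene symbol and library, which is already divided by transcript length and by mapped reads. The gene annotation, the sharing of reads that fit several genes and any scaling between libraries are not given in the sources used here. The files hold no counts, so count models and counting intervals were not used, and relative depth was read from the steps between values under 0.05 FPKM.

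Of 23309 entries per library those of 2 symbols listed more than once were left out. For genes averaging 1 FPKM or more in at least 1 genotype, limma 3.58.1 in R 4.3.3 (lmFit, eBayes with trend, 2 residual and 3.10 prior degrees of freedom) was fitted to log2(FPKM + 1) of all 4 libraries, with Benjamini-Hochberg adjustment over the 10949 genes. The added 1 makes changes of weakly expressed genes look smaller. The fit was also run on simulated data that took their means and spread from these libraries. Within-library ratios were compared by an exact permutation test in Python 3.11.15 with numpy 2.4.6 and pandas 2.3.3. Positions come from GENCODE M1 on mm9 and promoter sequences from RefSeq.

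The members, gene lists and thresholds were chosen with earlier results of these data known. Of the pathway lists the text names genes that were called, had an unadjusted p of 0.05 or less or changed at least 2-fold, and otherwise the highest gene of a role. Alternatives covered the pseudocount, the filter, the replicate block, each library left out, quantile normalization and robust variance estimation. The limma p-values rest on the spread between 2 libraries per genotype, moderated by the spread of other genes at similar levels. The permutation p-values count assignments of libraries to genotypes and cannot go below 0.333.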

Additional observations from a re-analysis of the deposited data

How the results depend on the processing

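Tlr1 was the 1 member called under 10 of 11 alternatives, 4 of which leave out a library and so take their spread from 1 genotype. With no filter on low values 0 members were called, since Tlr1 (log2 fold change -2.18) then had an adjusted p of 0.0684, and 75 genes were called in all against 186. Robust variance estimation called 305 genes. The replicate numbers of the labels do not stand for shared mice, and deviations of same-numbered libraries from their genotype means had a correlation of -0.21 across genes. With the number as a replicate block 266 genes were called, and with crossed pairs as a block, chosen after seeing the data, 409, in both cases with Tlr1 as the 1 member called. The calls that were lower made up 48.4% in the fit reported and 40.3% with crossed pairs. Leaving out 1 library at a time, the lone library being assumed to vary like those of the other genotype, gave 130 to 144 called genes, 32.3% of them lower without Ets1-/- replicate 2. The 45 pathway genes gave 0 calls under all 11 alternatives.

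Of 108 refitted member values 101 kept their direction and their side of the threshold, and 6 changed sign, all with 1 library left out. Over those fits the log2 fold change ranged from -2.51 to -1.85 for Tlr1 and from -0.80 to -0.39 for Cd180, and it crossed 0 for Tlr2 (-0.11 to 0.19), Tlr7 (-0.14 to 0.27), Tlr9 (-0.086 to 0.17) and Myd88 (-0.14 to 0.17). The log2 difference of the ratio of Tlr7 to Tlr9 ranged from -0.16 to 0.20, that of Tlr1 to Tlr2 from -2.85 to -1.77, that of Tlr1 to Tlr6 from -2.96 to -2.50, and that of Cd180 to Ly86 from -0.73 to -0.22. Tlr3 was not tested where its mean fell under the minimum. The threshold itself bars a call for any change under 2-fold.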

Other observations

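Of the pathway genes 8 were too low to test, with FPKM values between 0.00894 and 0.958. They include Tlr5, the flagellin receptor, at 0.0157 and 0.00894 FPKM in WT and 0.0470 and 0.0358 in Ets1-/- libraries, and Tlr8, the X-linked neighbour of Tlr7, at 0.143 and 0.0725 in WT and 0.124 and 0.0544 in Ets1-/- libraries. Tlr11 was at 0.0156 and 0.0267 FPKM in WT and 0.0750 and 0.0892 in Ets1-/- libraries, and Tlr13 was at 0.185 and 0.112 in WT and 0.170 and 0.141 in Ets1-/- libraries. Lbp, which carries lipopolysaccharide to CD14, was at 0.0404 and 0.0461 FPKM in WT and at 0.885 and 0.369 in Ets1-/- libraries, below the level at which genes were tested. Tlr12, the 1 receptor outside the members that was tested, was at 1.86 and 0.991 FPKM in WT and at 0.966 and 1.08 in Ets1-/- libraries, overlapping between genotypes. Lbp, Tlr5 and Tlr11 were thus higher in both Ets1-/- libraries and Sarm1, at 0.365 and 0.252 FPKM in WT, was lower at 0.180 and 0.210. So 4 of these 8 genes did not overlap, beside 41.6% of the genes tested, an unlike set that averaged 1 FPKM or more. All values of Tlr5 and the WT values of Tlr11 were under 0.05 FPKM, where values move in steps. Most neutrophil, erythroid and dendritic cell markers were higher in both Ets1-/- libraries too, though 4 of the 7 dendritic cell markers were under 1 FPKM in every library. The part of such cells in the values of these 8 genes was not tested.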
